A study of Homo sapiens with 7 samples.

Results

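The 5 genes described here encode the kinases that palbociclib inhibits, CDK4 and CDK6, and the D cyclins that activate them, CCND1, CCND2 and CCND3. They were taken by gene symbol from a table of 63677 genes, each symbol matched 1 Ensembl ID, and 4 of the 5 passed the filter on low counts. The cells were T47D, an established luminal line from a human breast tumour that expresses the estrogen receptor. There were 2 RNA-seq libraries of resistant clone 4, 2 of resistant clone 2 and 3 of the palbociclib-sensitive parental cells. All were grown in the same medium with insulin, EGF and hydrocortisone. The resistant lines had been selected over 6 months in palbociclib, at doses raised from 1 uM to 5 uM. The labels write the maintenance dose as 5 mM, and say that the drug was left out during experiments except where noted. Each resistant line is called a clone in the labels, so a difference belongs to that clone and cannot be told apart from clonal variation or from lasting effects of drug exposure. The labels describe the clone 2 libraries as biological replicates, but nothing states that the replicates of any group were separate cultures. The p-values therefore measure only the spread between these libraries, which may be technical.

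D cyclins are made in response to mitogens and estrogen, bind CDK4 or CDK6 and direct them to the retinoblastoma protein RB1 and its relatives. Phosphorylation of these pocket proteins releases E2F factors and lets a cell pass from G1 into S phase. Cyclin D1 is widely overexpressed in luminal breast cancer. INK4 proteins block the kinases, while CIP/KIP proteins both help to assemble the cyclin D complexes and inhibit CDK2.

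The libraries held 10997625 to 17524621 counts. The RNA was that of luminal cells: the 7 luminal markers ESR1, GATA3, FOXA1, KRT8, KRT18, KRT19 and EPCAM summed to 11000 to 12300 CPM (read counts scaled to library size, with TMM factors) in clone 4, 9350 to 9790 in clone 2 and 13600 to 17300 in parental cells. The 6 leukocyte markers together stayed at 1.25 to 2.54 CPM in clone 4, 3.13 to 3.41 in clone 2 and 1.57 to 3.08 in parental cells, with TYROBP at 0 throughout and PTPRC at 0 or 1 count. The 8 fibroblast markers summed to 72.2 to 105 CPM in clone 4, 215 to 238 in clone 2 and 40.4 to 43.7 in parental cells. All 4 fibroblast markers tested, COL1A1, COL3A1, LUM and DCN, were called higher in clone 2 against parental (median 2.63 on the log2 scale), and 1 of the 4 was called higher in clone 4. The other markers were not tested. COL1A2 had 1 and 4 counts in clone 2 and 2, 5 and 2 in parental cells. THY1 had 7 and 10 counts in clone 2 and 3, 23 and 8 in parental cells. PDGFRA and PDGFRB had at most 1 count in any library. Among parental libraries, replicate 3 differed more from the other 2 (chi-square per degree of freedom 12.5 and 17.5) than these did from each other (5.48). Some of the values that change without replicate 3 are given below. The 4 endothelial markers summed to at most 2.67 CPM, with PECAM1 at 0 throughout, and the 6 basal markers to 13.1 to 25.7 CPM. CLDN5, the only endothelial marker tested, was called higher in clone 4 (2.75 on the log2 scale) and clone 2 (1.29). It had 33 and 31 counts in clone 4, 12 and 13 in clone 2, and 5 in each parental library. Of the 7 luminal markers, 1 was called higher and 1 lower in clone 4, and none higher and 4 lower in clone 2. Of 4 basal markers tested, 1 was higher and 1 lower in clone 4, and 2 higher and 1 lower in clone 2. Of all genes tested, 22.1% were higher and 22.3% lower in clone 4, and 21.7% and 20.8% in clone 2.

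RNA of the kinase CDK6 was higher in both resistant clones, and that of CDK4 was lower in clone 2. Cyclin D1 RNA was higher in clone 2, cyclin D3 RNA was slightly higher in clone 4, and cyclin D2 RNA was at or near 0 in all libraries. Of the 4 genes tested, 2 were called higher and none lower in clone 4 against parental, where 44.4% of all genes tested were called (22.1% higher and 22.3% lower). In clone 2 against parental, 2 were called higher and 1 lower, beside 42.5% of all genes tested (21.7% higher and 20.8% lower). Between the clones 2 were higher in clone 2 and none lower, beside 36.5% (19.6% higher and 17.0% lower). With backgrounds of this size the counts are not a result about these genes, and the values below are given gene by gene. A gene was called at an edgeR quasi-likelihood p below 0.05 after Benjamini-Hochberg adjustment over 17502 genes. The median log2 fold change of all genes tested was 0.005 in clone 4, 0.016 in clone 2 and 0.030 between the clones.

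**Figure D1:**
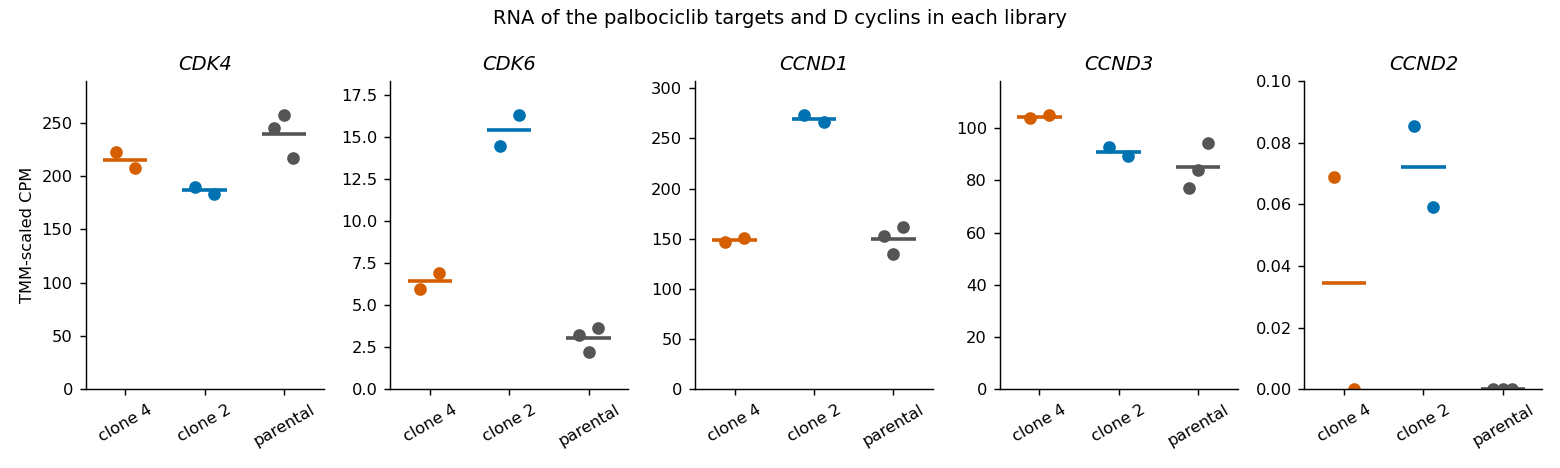
TMM-scaled CPM (vertical axes, each from 0) of each gene in the 2 clone 4, 2 clone 2 and 3 parental libraries; points are libraries and lines are group means. CDK6 is at 14.5 and 16.3 CPM in clone 2, against 2.19 to 3.66 CPM in parental cells, CCND1 stands apart in clone 2, and CCND2 holds at most 1 count per library.

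CDK6, the partner of D cyclins best known from blood cells, was a low-level transcript in parental T47D. It had 5.98 and 6.93 CPM in clone 4, 14.5 and 16.3 CPM in clone 2, and 3.22, 2.19 and 3.66 CPM in parental replicates 1, 2 and 3, from 37 to 276 counts per library. The 3 groups did not overlap, and clone 2 was highest. The log2 fold change was 1.11 in clone 4 (SE 0.219, 95% interval 0.63 to 1.58, edgeR adjusted p = 0.00115), and all libraries of the clone lay above all parental ones. In clone 2 it was 2.37 (SE 0.199, edgeR adjusted p = 8.24e-07), a 5.16-fold higher level. Clone 2 also exceeded clone 4, by 1.26 on the log2 scale (SE 0.206, edgeR adjusted p = 0.000453). These 3 calls held without any one of the 7 libraries, with log2 fold changes of 0.90 to 1.27, 2.16 to 2.54 and 1.15 to 1.36. Among all genes tested, 7.94% had a larger log2 fold change in clone 4 and 2.65% in clone 2.

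CDK4, the other catalytic partner of the D cyclins, was the most abundant of the 5 in every library per kilobase of exon. It had 223 and 208 CPM in clone 4, 190 and 183 CPM in clone 2, and 245, 257 and 217 CPM in parental cells. Clone 2 lay below all other libraries, and clone 4 overlapped parental cells. CDK4 fell in clone 2 by 0.36 on the log2 scale (SE 0.102, 95% interval -0.58 to -0.14, edgeR adjusted p = 0.0112), which is 77.8% of the parental level. With 1 clone 2 library left, the log2 fold change stayed at -0.40 without replicate 1 and -0.34 without replicate 2, but the call was lost. Fewer of all genes are called in such fits, as given in the closing section. This also bears on the other calls and counts that are lost below without 1 clone 2 library. In clone 4 the log2 fold change was -0.15 (95% interval -0.37 to 0.07, edgeR adjusted p = 0.249), and it was called only without parental replicate 3 (-0.23, adjusted p = 0.0483). The difference of clone 2 from clone 4, -0.21, was not called (95% interval -0.45 to 0.03, edgeR adjusted p = 0.152).

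The CDK4 values have a limit of annotation. In GENCODE 29, 43.2% of the exon bases of CDK4 are also exon bases of TSPAN31, a tetraspanin gene on the opposite strand. TSPAN31 had 1838 to 4475 counts per library, 82.5% to 103% of the CDK4 count. It fell in clone 2 by 0.64 on the log2 scale (SE 0.104, edgeR adjusted p = 0.000243) and was at -0.18 in clone 4 (adjusted p = 0.167). With the strand setting of the counting not given, reads of CDK4 and TSPAN31 cannot be told apart in the shared bases. CDK6 shares 0.661% of its exon bases with an antisense RNA that had at most 4 counts in a library.

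The proximal promoters of the kinases, from RefSeq on GRCh38.p14, are shown because CDK6 and CDK4 RNA differed in opposite directions in clone 2. Each window runs from 250 bases before to 50 bases after an annotated start, on the minus strand. Capitals mark the E-box CACGTG, a sequence that MYC and related factors bind.
CDK4, chr12:57752261-57752560: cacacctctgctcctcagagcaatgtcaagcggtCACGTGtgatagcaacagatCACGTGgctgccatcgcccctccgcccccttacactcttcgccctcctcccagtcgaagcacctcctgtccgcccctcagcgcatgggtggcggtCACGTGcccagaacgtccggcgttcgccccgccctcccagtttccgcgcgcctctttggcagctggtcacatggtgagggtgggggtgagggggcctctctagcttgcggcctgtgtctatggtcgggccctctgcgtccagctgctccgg
CDK6, first start, chr7:92836524-92836823: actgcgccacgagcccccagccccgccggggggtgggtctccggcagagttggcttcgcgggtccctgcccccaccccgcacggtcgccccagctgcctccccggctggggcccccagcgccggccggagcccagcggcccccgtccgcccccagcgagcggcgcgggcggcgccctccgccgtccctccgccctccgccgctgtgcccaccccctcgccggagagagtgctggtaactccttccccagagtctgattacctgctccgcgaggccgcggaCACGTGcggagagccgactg
CDK6, second start, chr7:92833910-92834209: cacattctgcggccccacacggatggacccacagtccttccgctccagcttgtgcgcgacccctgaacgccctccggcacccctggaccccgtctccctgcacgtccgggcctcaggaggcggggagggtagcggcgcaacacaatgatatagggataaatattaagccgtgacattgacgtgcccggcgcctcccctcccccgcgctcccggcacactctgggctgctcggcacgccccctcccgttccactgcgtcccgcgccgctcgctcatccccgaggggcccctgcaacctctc
The CDK4 window held 3 E-boxes, the first CDK6 window 1 and the second none. Of 35116 promoter windows of this length, 7.26% held at least 1 and 0.0940% held 3 or more. None of the 3 windows matched TTCNNNGAA (bound by STAT factors, in 7.66% of all windows), TGANTCA (bound by AP-1, in 7.71%) or the interferon-stimulated response element (in 3.57%), each searched on both strands. The SP1 sequence GGGCGG was found 3 times in the CDK4 window and 3 times in the first CDK6 window, and 45.0% of all windows held it. It overlapped no E-box in these windows and is not capitalised. MYC itself, named here after its values were seen, rose by 0.33 on the log2 scale in clone 4 (SE 0.0973, edgeR adjusted p = 0.013) and by 1.13 in clone 2 (SE 0.0954, edgeR adjusted p = 8.42e-07). A match in these letters is a description and not a measured binding site. Of the 5 genes, 3 (CDK4, CDK6 and CCND3) had an entry in this promoter table.

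CCND1, which encodes cyclin D1, was higher in clone 2 than in clone 4 and parental cells. It had 147 and 151 CPM in clone 4, 273 and 266 CPM in clone 2, and 153, 135 and 162 CPM in parental cells. Clone 4 lay inside the parental range, and clone 2 lay above all other libraries. CCND1 rose in clone 2 by a log2 fold change of 0.85 (SE 0.0996, 95% interval 0.63 to 1.06, edgeR adjusted p = 1.85e-05), a 1.80-fold higher level. In clone 4 the log2 fold change was -0.01, with a 95% interval of -0.23 to 0.20 (edgeR adjusted p = 0.92). The clones themselves differed by 0.86 (SE 0.111, edgeR adjusted p = 8.66e-05). Without any one library the clone 2 differences stayed called, at 0.77 to 0.90 against parental and 0.84 to 0.88 against clone 4. ORAOV1, on the opposite strand, shares 10.3% of the exon bases of CCND1 and had 35.7% to 58.9% of its counts. ORAOV1 rose by 0.47 in clone 2 (SE 0.117, edgeR adjusted p = 0.00527), and reads in the shared bases cannot be told apart.

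CCND3, which encodes cyclin D3, had the smallest spread over the groups. It had 104 and 105 CPM in clone 4, 92.8 and 89.2 CPM in clone 2, and 77.1, 84.0 and 94.4 CPM in parental cells. Clone 4 lay above all other libraries, and clone 2 overlapped parental cells. The log2 fold change in clone 4 was 0.30 (SE 0.104, 95% interval 0.07 to 0.52, edgeR adjusted p = 0.0334). Of the 7 fits without 1 library, 6 did not call it (edgeR adjusted p from 0.0734 to 0.136), and the fit without parental replicate 3 did (adjusted p = 0.0066). The other comparisons were not called: 0.10 in clone 2 against parental (95% interval -0.13 to 0.32, edgeR adjusted p = 0.49) and -0.20 in clone 2 against clone 4 (95% interval -0.45 to 0.05, edgeR adjusted p = 0.19).

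CCND2, which encodes cyclin D2, was not detectable above 1 count per library. It had 1 and 0 counts in clone 4, 1 and 1 counts in clone 2, and 0 counts in each of the 3 parental libraries. The 0 of 43954447 parental counts allows a level of up to 0.0704 CPM, taking 3 counts over the group as the floor. All groups were at or under this floor of 3 counts, so no fold or test is given. The overlapping antisense gene CCND2-AS2 had 0 counts in all 7 libraries.

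**Figure D2:**
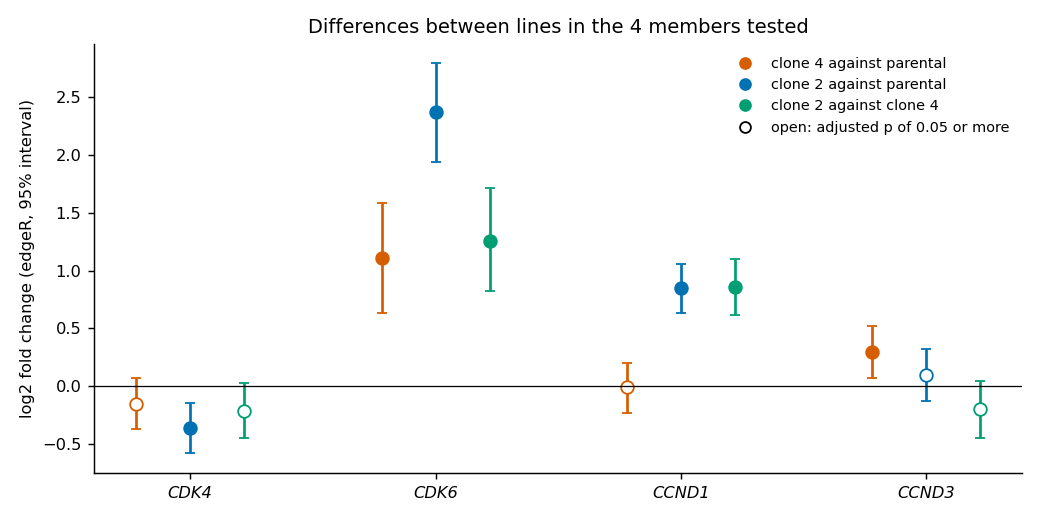
log2 fold changes (vertical axis) of the 4 genes tested in 3 comparisons, with 95% intervals from edgeR; filled points were called at an adjusted p below 0.05 and open points were not. CDK6 is above 0 in all 3 comparisons, CCND1 at 0.85 and 0.86 in those with clone 2 on top, and CDK4 and CCND3 stay within 0.36 of 0.

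Per kilobase, the order of levels within each of the 7 libraries was CDK4, CCND1, CCND3, CDK6 and CCND2, taking the length of all exons of a gene in GENCODE 29. CDK4 stood at 68.1 ± 3.39 CPM per kb in clone 4 (SD, n = 2), 58.8 ± 1.65 in clone 2 (SD, n = 2) and 75.6 ± 6.48 in parental cells (SD, n = 3). CDK6 stood at 0.526 ± 0.0549 in clone 4, 1.26 ± 0.103 in clone 2 and 0.247 ± 0.0615 CPM per kb in parental cells. CCND1 was at 30.8 ± 0.587, 55.9 ± 0.995 and 31.1 ± 2.85 CPM per kb, and CCND3 at 18.0 ± 0.0787, 15.7 ± 0.443 and 14.7 ± 1.5, in clone 4, clone 2 and parental cells. The 2 cyclins trade places when the longest transcript sets the length: CCND3 then stood above CCND1 in 4 of the 7 libraries, both of clone 4 and parental replicates 2 and 3. The order of CCND1 and CCND3 outside clone 2 is therefore not settled by these counts. With either length, counts per kilobase of CCND1 were above CCND3 in clone 2, and those of CDK4 above all others in every library. How reads in the bases shared with TSPAN31 and ORAOV1 were counted for CDK4 and CCND1 is not given. The order without those bases was not tested. In clone 2 the CDK4 rank by all exons rested on a narrow gap, 58.8 against 55.9 CPM per kb for CCND1.

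Even in clone 2, CDK6 made up a small part of the RNA of both kinases. Its share per kilobase was 0.686% and 0.852% in clone 4, 1.93% and 2.25% in clone 2, and 0.338%, 0.221% and 0.435% in parental cells. There were 37.4 and 30.1 counts of CDK4 for each count of CDK6 in clone 4, 13.1 and 11.2 in clone 2, and 76.2, 117 and 59.1 in parental cells. This ratio within a library does not depend on how libraries are scaled. How reads in the bases shared with TSPAN31 were counted for CDK4 is not given. The log2 ratio of CDK6 to CDK4 counts, with 0.5 added to each, was -5.22 and -4.90 in clone 4, -3.71 and -3.49 in clone 2, and -6.23, -6.85 and -5.87 in parental cells. Its mean over the 4 libraries of both clones exceeded that of the 3 parental libraries by 1.99, with all 4 above all 3. The exact two-sided permutation p was 0.0571, the smallest this design allows, and 0.114 after adjustment over 2 measures. This test treats the 4 libraries as exchangeable, though they came from only 2 clones, with means of -5.06 in clone 4 and -3.6 in clone 2. The same limit holds for the test of the CCND1 share below. A single clone against parental cannot go below 0.20 in such a test, so the clones' own differences, 1.26 in clone 4 and 2.72 in clone 2, are given as values.

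The share of CCND1 in D cyclin RNA lay on opposite sides of the parental range in the 2 clones. CCND1 made up 62.8% and 63.3% of D cyclin RNA per kilobase in clone 4, 77.9% and 78.2% in clone 2, and 70.5%, 65.9% and 67.3% in parental cells. By longest transcript the shares were 43.9% and 44.4% in clone 4, 62.1% and 62.4% in clone 2, and 52.5%, 47.2% and 48.8% in parental cells. With either length the clone 4 libraries lay below and the clone 2 libraries above all parental ones. Both clones together against parental differed by 2.65 percentage points (exact two-sided permutation p = 0.571, 0.571 adjusted over 2 measures), since the clones lie on either side. The D cyclin sum over the sum of CDK4 and CDK6, per kilobase, was 0.680 and 0.743 in clone 4, 1.19 and 1.20 in clone 2, and 0.580, 0.523 and 0.725 in parental cells. Clone 2 was thus the line in which D cyclin RNA exceeded kinase RNA per kilobase, also with the longest transcript (1.10 and 1.11). How reads in the bases shared with TSPAN31 and ORAOV1 were counted for CDK4 and CCND1 in this ratio is not given. TSPAN31 fell and ORAOV1 rose in clone 2, as given above, and the part of their reads in the ratio was not tested.

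**Figure D3:**
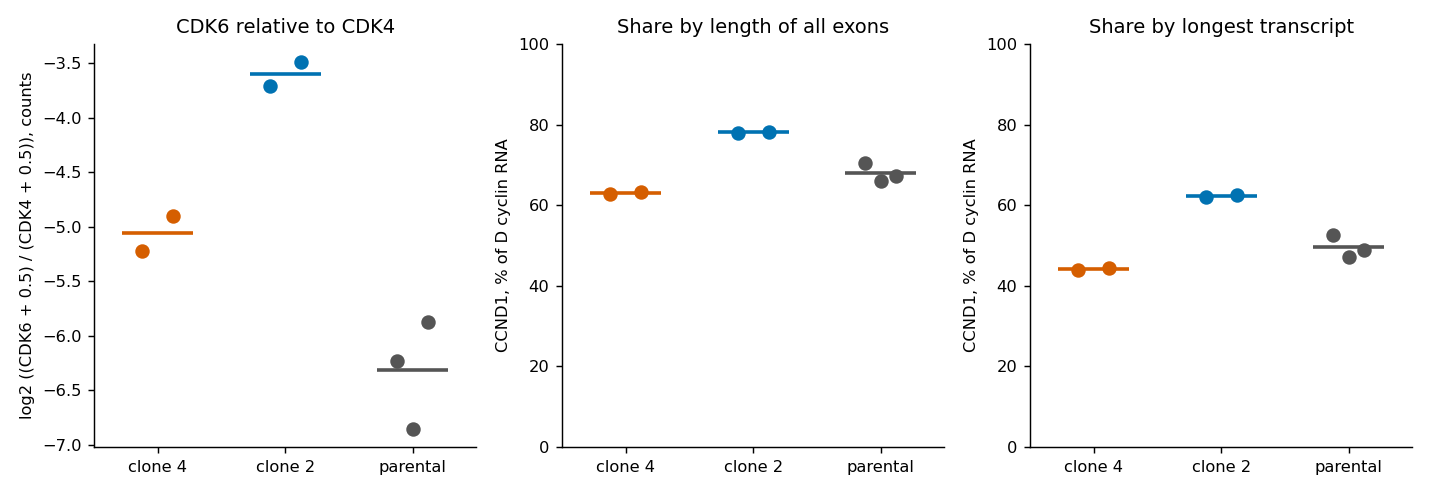
Left, log2 ratio of CDK6 to CDK4 counts with 0.5 added to each; middle and right, CCND1 as a percentage of D cyclin RNA by the length of all exons and by the longest transcript; points are libraries and lines are group means. The CDK6 ratio is highest in clone 2 (-3.71 and -3.49), and the CCND1 share is above parental cells in clone 2 and below them in clone 4.

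Among the inhibitors of these kinases, 1 of 4 INK4 genes and 2 of 3 CIP/KIP genes were called in each clone, beside 44.4% of all genes tested in clone 4 and 42.5% in clone 2. Lists this short cannot be read against those shares, and the genes are given one by one. CDKN2B, which encodes p15, was the 1 of 4 INK4 genes called in either clone. It was lower in clone 4 at -0.42 (SE 0.155, edgeR adjusted p = 0.0414), a call lost without any one of the 7 libraries (adjusted p up to 0.157), and higher in clone 2 at 0.38 (SE 0.144, edgeR adjusted p = 0.0447), lost without either clone 2 library or parental replicate 1 or 2. The difference between the clones was 0.80 (SE 0.165, edgeR adjusted p = 0.00212). CDKN2A, which encodes p16, had log2 fold changes of 0.25 in clone 4 and -0.02 in clone 2 and was not called, but was called in clone 4 without parental replicate 3 (0.44, adjusted p = 0.0188). Of the 3 CIP/KIP genes 2 were higher in each clone and none lower. CDKN1A, which encodes p21, averaged 45.5 ± 2.65 CPM in clone 4 and 102 ± 0.799 CPM in clone 2 (SD, n = 2 each), against 25.0 ± 1.11 CPM in parental cells (SD, n = 3). CDKN1C, which encodes p57, rose in clone 4 by 1.77 (SE 0.376, edgeR adjusted p = 0.00189). This was at a low level, with 23 and 24 counts in clone 4 and 4, 8 and 10 counts in parental cells. CDKN1B, which encodes p27, rose in clone 2 by 0.41 (SE 0.14, edgeR adjusted p = 0.0292), a call lost without either clone 2 library or parental replicate 2.

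Of the 3 pocket protein genes, which encode the main substrates, 2 were lower in each clone (all genes tested, 22.3% in clone 4 and 20.8% in clone 2). RB1 averaged 0.194 ± 0.0799 CPM in clone 4 and 28.7 ± 0.535 CPM in clone 2 (SD, n = 2 each), against 55.2 ± 4.82 CPM in parental cells (SD, n = 3). RBL2, which encodes p130, had log2 fold changes of -1.21 (SE 0.113) in clone 4 and -0.40 (SE 0.108, edgeR adjusted p = 0.00905) in clone 2. The RBL2 call in clone 2 was lost in the fits with 1 clone 2 library, at -0.45 without replicate 1 and -0.37 without replicate 2. RBL1 was not called in either clone. It had 35.4 and 31.5 CPM in clone 4, 27.0 and 27.1 in clone 2, and 26.5, 24.9 and 31.2 in parental cells. Without parental replicate 3, RBL1 was called higher in clone 4.

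Of the 6 genes of the CDK-activating kinase and the chaperones that mature CDK4, CDC37 was higher in both clones. CDC37 is the cochaperone that brings CDK4 and CDK6 to HSP90, and it rose by 0.48 (SE 0.104) in clone 4 and 0.61 (SE 0.103) in clone 2. HSP90AB1 fell in clone 4 by 0.65 (SE 0.117, edgeR adjusted p = 0.000588) and was at -0.25 in clone 2 (edgeR adjusted p = 0.0926). In clone 2 it was called by DESeq2 (adjusted p = 0.0416). It was also called by edgeR with no filter beyond 1 count (adjusted p = 0.0431) or only the groups compared (0.0484). Under the other processing settings it was not called (edgeR adjusted p up to 0.126). CDK7, CCNH, MNAT1 and HSP90AA1 were not called in either clone in the main fit. Of the 6 genes, 2 were called higher in each clone with a replicate block. In clone 2, 1 was called lower with the block or RLE scaling. Without parental replicate 3, 2 were called higher and 1 lower in clone 2.

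Of 12 genes of cyclin D turnover, 3 were higher and 5 lower in clone 4 (all genes tested, 22.1% and 22.3%), and 3 were higher and 4 lower in clone 2 (all genes tested, 21.7% and 20.8%). The 3 higher are near the share of all genes. CUL4A, a scaffold of the ubiquitin ligase that works with DDB1 and AMBRA1 on D cyclins, fell by 1.68 (SE 0.112) in clone 4 and 0.70 (SE 0.105) in clone 2. CRYAB, a small heat shock protein that acts with FBXO4 on cyclin D1, rose by 1.51 (SE 0.179) and 2.24 (SE 0.17). FBXO31, a receptor of another cyclin D1 ligase, was higher in clone 2 at 0.90 (SE 0.115, edgeR adjusted p = 3.68e-05) and at 0.13 in clone 4. USP2, which removes ubiquitin from cyclin D1, rose by 0.73 (SE 0.135) in clone 4 and 0.44 (SE 0.136) in clone 2. The USP2 call in clone 2 was lost without either clone 2 library or parental replicate 1 or 2. The 5 lower in clone 4 became 2 without clone 4 replicate 2 or parental replicate 1 and 3 without parental replicate 2. The count of 4 lower in clone 2 was smaller in the fits with 1 clone 2 library, in which fewer of all genes were called too.

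Of 19 tested factors known to act on D cyclin genes, 6 were higher and 2 lower in clone 4 (all genes tested, 22.1% and 22.3%). In clone 2, 10 were higher and 4 lower (all genes tested, 21.7% and 20.8%). The counts of the clones were not tested against each other. The median log2 fold change of the list was 0.16 in clone 4 and 0.65 in clone 2. JUN, an AP-1 factor that activates CCND1, averaged 40.0 ± 3.45 CPM in clone 4 and 116 ± 1.34 CPM in clone 2 (SD, n = 2 each), against 24.6 ± 0.835 CPM in parental cells (SD, n = 3). FOS, its partner, was lower in clone 4 at -1.23 (SE 0.31, edgeR adjusted p = 0.00871, but 0.11 without clone 4 replicate 2) and higher in clone 2 at 3.88 (SE 0.233), and JUNB rose in both. STAT5A, which cytokine receptors activate, rose by 2.43 (SE 0.221) in clone 4 and 2.46 (SE 0.219) in clone 2. ESR1, through which estrogen induces CCND1, fell in clone 2 by 0.94 (SE 0.0997), in the same libraries in which CCND1 rose. The 4 lower in clone 2 became 1 without either clone 2 library and 2 without parental replicate 1, and the 2 lower in clone 4 became 0 without clone 4 replicate 2 and 1 without parental replicate 1.

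Downstream, cyclin E1 was higher in both clones, and the E2F target genes called in clone 2 in the main fit were all lower. Without parental replicate 3, 1 E2F target was called higher in clone 2. CCNE1, which activates CDK2, rose by 1.21 (SE 0.173) in clone 4 and 1.81 (SE 0.167) in clone 2. CCNE2, which encodes cyclin E2, was called higher in clone 4 at 0.39 (SE 0.14, edgeR adjusted p = 0.0355), a call lost in 6 of the 7 fits without 1 library, and was at -0.28 in clone 2. Of 16 E2F targets of the G1/S transition, 4 were higher and 1 lower in clone 4, and none higher and 6 lower in clone 2, with medians of 0.09 and -0.10 (all genes tested, 22.1% higher and 22.3% lower in clone 4, 21.7% and 20.8% in clone 2). In clone 2 against clone 4, none was higher and 8 were lower, with a median of -0.28 (all genes tested, 19.6% higher and 17.0% lower). The count of 8 was smaller in the fits with 1 clone 2 library, in which fewer of all genes were called too. E2F1, itself a target of E2F factors, rose by 0.76 (SE 0.106) in clone 4 and was at 0.20 in clone 2, while CDC6, which licenses replication origins, fell by 0.58 (SE 0.11) in clone 2 and was at -0.03 in clone 4. PCNA, the sliding clamp of replication, was higher in clone 4 at 0.36 (SE 0.104, edgeR adjusted p = 0.0133) and lower in clone 2 at -0.49 (SE 0.107, edgeR adjusted p = 0.00228). The clone 4 call of PCNA was lost without clone 4 replicate 1 or parental replicate 1. The 4 higher in clone 4 became 2 without clone 4 replicate 1 or parental replicate 1 and 7 without parental replicate 3, and the 6 lower in clone 2 became 3 without clone 2 replicate 1.

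**Figure D4:**
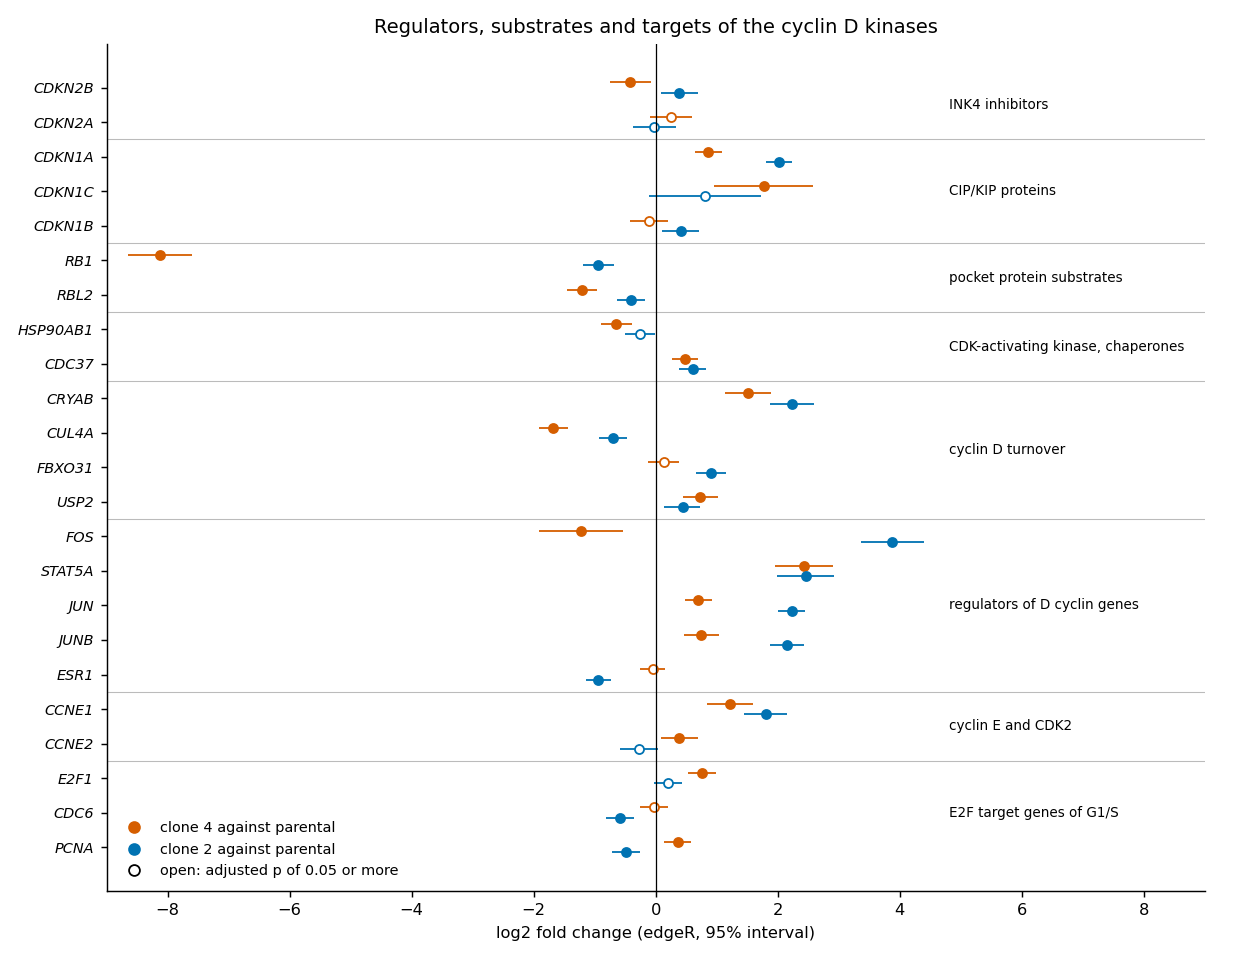
log2 fold changes (horizontal axis, with 95% intervals from edgeR) of named inhibitors, substrates, chaperones, turnover factors, regulators and targets in clone 4 and clone 2 against parental; filled points were called and open points were not. RB1 stands at -8.13 in clone 4, and FOS, JUN, JUNB and CDKN1A lie further right in clone 2 than in clone 4.

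Among the genes next to the members, called ones stood beside uncalled ones. For each member the 5 nearest tested protein-coding genes on either side, in GENCODE 29 order, were compared, and the share of all genes tested was 22.1% higher and 22.3% lower in clone 4 and 21.7% higher and 20.8% lower in clone 2. With 10 neighbours each, the counts are descriptions and nothing particular to these regions is read from them. Around CDK6, 4 of 10 neighbours were higher and 2 lower in clone 4, and 3 higher and 1 lower in clone 2. The immediate neighbours were FAM133B, at 0.40 in clone 4 (SE 0.111) and 0.38 in clone 2 (SE 0.111), and on the other side SAMD9 and SAMD9L, interferon-inducible genes, both called higher in each clone, SAMD9L at 3.25 in clone 4 and 4.36 in clone 2. CALCR, 2 genes beyond SAMD9L, was lower, at -2.36 and -2.05. Around CCND1 in clone 2, 3 of 10 were higher and 2 lower, with a median of 0.07. MYEOV, the nearest tested gene on one side, rose by 1.13 (SE 0.21), ORAOV1 on the other side rose as given above, and ANO1, next after ORAOV1, fell by 0.73 (SE 0.159). Around CDK4 in clone 2, 4 of 10 were higher and 3 lower, the lower ones being TSPAN31, OS9 and TSFM. Around CCND3 in clone 4, 3 of 10 were higher and none lower, PRICKLE4, FRS3 and USP49, while the nearest genes on each side, BYSL and TAF8, were at -0.06 and 0.05 and not called. Around CCND2, 1 of 10 was higher and 2 lower in clone 4, and 1 higher and 1 lower in clone 2.

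**Figure D5:**
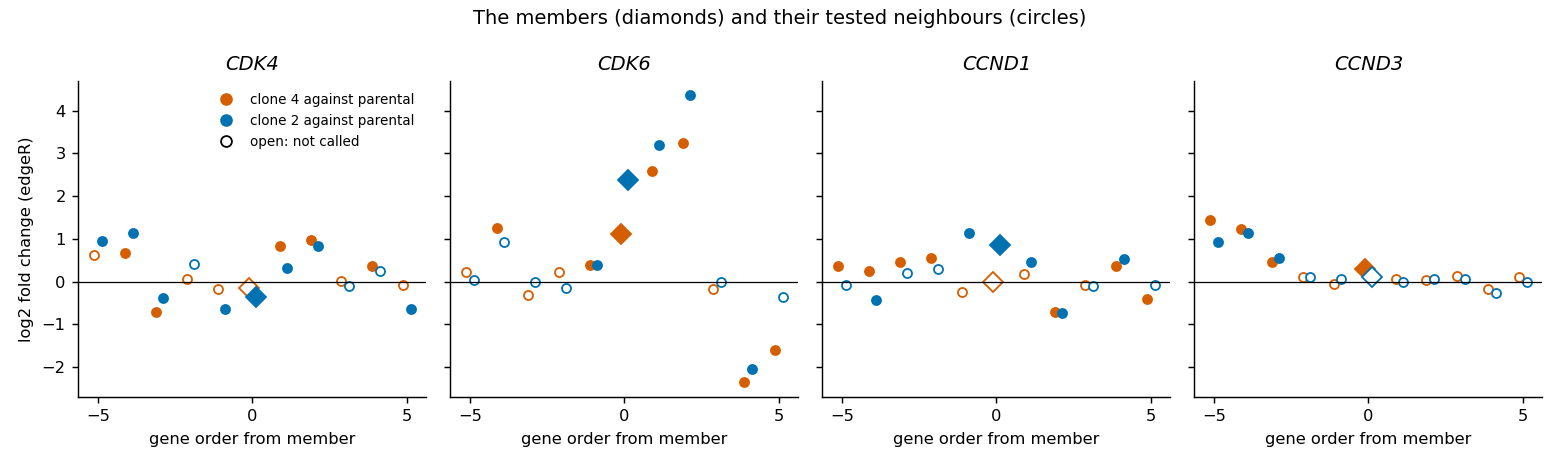
log2 fold changes (vertical axis, edgeR) of each tested member (diamond, at 0) and its 5 nearest tested protein-coding genes on each side by gene order (circles) in clone 4 and clone 2 against parental; filled symbols were called. CDK6 lies between FAM133B, near 0.4, and SAMD9 and SAMD9L, at up to 4.36, and CCND1 in clone 2 between MYEOV at 1.13 and ORAOV1 at 0.47.

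The genes whose profiles were most like each member were found by the root mean square difference, over the 7 libraries, of log2 CPM minus the gene's own parental mean, among 11456 genes. For CDK6 they were CYP1B1 (difference 0.206), BTG2 (0.209) and JUNB (0.242). CYP1B1 had log2 fold changes of 1.16 in clone 4 and 1.99 in clone 2, and BTG2 of 1.25 and 2.53. For CCND1 they were RBMS2 (0.070), CYFIP2 (0.078) and DBNDD1 (0.083), at 0.88, 0.83 and 0.71 in clone 2 and within 0.08 of 0 in clone 4. For CDK4 they were SERTAD3, STC2 and VPS11 (0.037 to 0.040), and for CCND3 PRCC, SNX5 and SNRNP70 (0.040 to 0.050), differences that are small because these profiles are nearly flat. The likeness is a description of 3 lines and says nothing of shared control.

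Beside the clone 2 rises of CDK6 and CCND1 stood the fibroblast markers called higher there, as given above. COL1A1 had 71.4 and 104 CPM in clone 4, 131 and 121 CPM in clone 2, and 39.5, 41.6 and 41.3 CPM in parental cells. COL3A1 had 0 and 0 counts in clone 4, 1209 and 1499 counts in clone 2, and 0, 1 and 0 counts in parental cells. LUM had 2 and 0 counts in clone 4, 33 and 60 in clone 2, and 3, 4 and 9 in parental cells, and DCN had 2 and 2, 9 and 17, and 3, 1 and 4. These collagens and proteoglycans were thus higher in clone 2, while PDGFRA and PDGFRB had at most 1 count in any library. COL1A2 and THY1 in clone 2 did not exceed the highest parental CPM. The part of these markers in the CDK6 and CCND1 values was not tested. In bulk RNA, more cells with a transcript and more transcript per cell cannot be told apart.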

How the data were processed

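Bulk RNA-seq of 7 T47D libraries was analysed. The deposited table held raw counts of reads per Ensembl gene, which entered the tests unchanged. FastQC, CASAVA, STAR and the hg19 build are listed in the submitters' processing notes. How reads were counted, with which annotation and strand setting, is not given in the sources used here. Rows without a gene name took 1.02% to 1.41% of counts, and 28 gene names had become dates. All 7 value columns matched a labelled library. Libraries of a group differed beyond sampling noise (chi-square per degree of freedom 1.5 in clone 2, 13.2 in clone 4, 5.48 to 17.5 in parental cells).

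Counts were filtered (filterByExpr, minimum count 10), leaving 17502 genes, scaled by TMM and fitted in one quasi-likelihood model with 3 group means (edgeR 4.0.16, R 4.3.3, robust). Standard errors came from the quasi-F statistic. The fit was tested on simulated data. Exon lengths and gene order came from GENCODE 29 (GRCh38), matched by ID for 16941 of the genes tested; no coordinates of the hg19 counts were used. Exact permutation tests used SciPy 1.17.1. Floors cover counting error only, while the 95% intervals cover counting error and the spread between these libraries.

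All 5 members are named. Of each of the 8 pathway lists, up to 4 genes called in either clone, by the larger fold, are named, with RB1, CDKN2A, CDKN1A, CDKN1B, CCNE1 and ESR1 whatever their values; 1 gene that this rule names is not reported here. Members, lists and tests were chosen with earlier results of these data known. The profile match took genes whose average log2 CPM was 2 or more and left out LOC, MIR, SNOR, RNU and clone-based names, and 3 genes are given per member. Alternatives were RLE scaling, DESeq2 1.42.0 (genes with at least 10 counts in all), keeping every gene with 1 count, requiring 50 counts in all and 1 CPM in as many libraries as the smallest group has, fitting a pair of groups alone, a replicate block, 1 in place of 0.5 in the count ratio, shares from raw counts, and each library left out in turn.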

Additional observations from a re-analysis of the deposited data

Results flagged for a closer look

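CDK6 and CCND1 stood out because the test of the difference between the clones was called. CDK6 was higher in clone 2 than in clone 4 by 1.26 on the log2 scale (edgeR adjusted p = 0.000453), with 14.5 and 16.3 CPM in clone 2 and 5.98 and 6.93 CPM in clone 4, so the size of its rise against parental cells differed between clones. CCND1 was higher by 0.86 (edgeR adjusted p = 8.66e-05), with 273 and 266 CPM in clone 2 and 147 and 151 CPM in clone 4. No test for a single outlying library was run in groups of 2 and 3.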

How the results depend on the processing

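The CDK6 and CCND1 calls kept their direction and call under all alternatives run, except that the uncalled CCND1 value in clone 4 turned positive under the replicate block (0.05) and lay between -0.09 and 0.03 when single libraries were left out. CCND3 in clone 4 was no longer called with no filter beyond 1 count (0.26, adjusted p = 0.0886) or with only the groups compared (0.31, adjusted p = 0.057), and lay between 0.23 and 0.37 without single libraries. CDK4 lay between -0.23 and -0.10 in clone 4 and between -0.44 and -0.31 in clone 2 without single libraries, and clone 2 against clone 4 was called with only those groups compared (-0.24, adjusted p = 0.0491). The cause was not tested. Genes called without single libraries numbered 5355 to 8060 in clone 4, 4291 to 7988 in clone 2 (main 7443, 4631 without clone 2 replicate 1 and 4291 without replicate 2) and 3289 to 7348 between the clones (main 6396, 3621 and 3289). The gain of CCND1 share in clone 2, 10.15 percentage points, became 12.71 by longest transcript, an alternative chosen after seeing the data.

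The labels describe the clone 2 libraries as biological replicates 1 and 2 but name them 4 and 6. Their numbers may therefore share nothing with those of the other groups. Deviations of same-numbered libraries from their group means correlated at 0.186 and 0.115 between clone 4 and parental cells and at -0.078 to 0.009 in pairs with clone 2, so the numbers were not taken to pair the libraries. With the replicate number as a block, which for clone 2 rests on the described numbers, no call of a member changed, and CDKN2B in clone 4 lost its call (adjusted p = 0.0673), while CDKN2A in clone 4 (0.45, adjusted p = 0.00565) and E2F1 in clone 2 (0.27, adjusted p = 0.0378) gained one. E2F targets higher in clone 4 became 7 and those higher in clone 2 became 2. RBL1 was called higher in clone 4 under the block.

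Uncalled values near 0 changed sign: CDKN2A in clone 2 under the block (0.18), STAT5A between the clones under RLE (0.00), DESeq2 (-0.01) and only the groups compared (0.00), and DBNDD1 (-0.02) and CYFIP2 (0.00) in clone 4 with no filter beyond 1 count. Without single libraries the ranges were -0.13 to 0.17 for CDKN2A in clone 2, -0.30 to 0.04 for CDKN1B, -0.12 to 0.02 for ESR1, -0.18 to 0.10 for CDC6, -0.03 to 0.05 for DBNDD1 and -0.09 to 0.15 for CYFIP2 in clone 4, -0.02 to 0.06 for STAT5A between the clones and -0.01 to 0.17 for SNRNP70 in clone 2. With DESeq2, CDKN1B (adjusted p = 0.0709) and USP2 (adjusted p = 0.084) in clone 2 and CDKN2B in both clones (adjusted p = 0.126 and 0.208) were not called. CDKN2B in clone 2 was also lost under RLE (adjusted p = 0.0566). CCND2 was tested nowhere, since 3 counts in all give no usable fold. CDK6 rested on 37 to 276 counts per library, which limits the precision of its fold more than for the other members.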
